A study of Mus musculus with 6 samples.

Results

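Blood lineage transcription factors are the DNA-binding proteins that set and keep the identity of white blood cells, and 9 of them were followed in RNA from atherosclerotic plaque: Ikzf1, Ikzf3, Spi1, Irf8, Irf4, Prdm1, Runx3, Maf and Cebpb. They were taken by gene symbol. All 9 were found among the 24062 symbols of the count table, and all 9 were among the 15222 genes that passed the filter on low counts. RNA came from plaque of the aortic arch of mice on the C57BL/6 strain that lack the low-density lipoprotein receptor, a defect shared by both groups. All mice ate a high-fat diet (TD88137) for 12 weeks, then a low-fat diet for the 3 weeks before they were killed. ABT263 (navitoclax), which blocks anti-apoptotic members of the BCL-2 family and is used to kill senescent cells, was given by intraperitoneal injection at 100 mg/kg, 1 dose a day, in week 1 of the low-fat diet. The comparison is of 3 libraries from mice given ABT263 with 3 from mice given vehicle. The labels give no age or sex and do not say that each library is a separate mouse, so every p-value rests on the scatter among these 6 libraries, some of which may be technical.

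White blood cells form from stem cells through a hierarchy of such factors. PU.1, the product of Spi1, drives the myeloid and B cell lines and acts through many enhancers together with IRF8 or IRF4, which bind DNA weakly alone and strongly beside PU.1. IRF8 directs monocytes and conventional dendritic cells, while IRF4 acts in plasma cells, activated T cells and alternatively activated macrophages. Ikaros (Ikzf1) and its close relative Aiolos (Ikzf3) are zinc finger proteins of the lymphoid line, and Ikaros is also present in myeloid cells. BLIMP-1 (Prdm1) represses the B cell programme in plasma cells and is induced in effector T cells and some macrophages. RUNX3 is needed for cytotoxic T cells and NK cells, c-MAF (Maf) acts in T helper cells and resident macrophages, and C/EBP-beta (Cebpb) acts in macrophages, neutrophils and also fat cells. Macrophages are the main white blood cells of plaque, with fewer lymphocytes beside them.

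These proteins act on promoters and enhancers, some of them on each other's genes. Promoters are therefore shown for Ikzf1, Irf8, Irf4, Prdm1 and Runx3, with 1 window for each, and other windows found are not printed. The windows run from 250 bases before to 50 bases after a transcription start and come from RefSeq (GRCm38.p6, the assembly that mm10 denotes), which gave 9 windows for 6 members. None was matched for Ikzf3, Spi1 or Maf. Capitals mark matches, on either strand, to TGGGAA (Ikaros core), GAGGAA (the ETS core bound by PU.1), TGTGGT (RUNX core), TTGCNNAA (C/EBP), a pair of GAAA with 2 free bases between them (IRF), TGCTGA (the core of a MAF site) or GAAAGTG (BLIMP-1 core). TGGGAA and GAGGAA share the letters GGAA at their ends.
Ikzf1 promoter (chr11:11685675-11685974, plus strand): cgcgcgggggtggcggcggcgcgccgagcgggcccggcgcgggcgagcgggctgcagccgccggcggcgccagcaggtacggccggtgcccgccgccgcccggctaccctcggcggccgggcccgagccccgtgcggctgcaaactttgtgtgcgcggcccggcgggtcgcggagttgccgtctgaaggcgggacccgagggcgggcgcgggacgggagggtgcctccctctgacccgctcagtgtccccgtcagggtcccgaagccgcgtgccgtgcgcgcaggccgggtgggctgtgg
Irf8 inner promoter (chr8:120738389-120738688, plus strand): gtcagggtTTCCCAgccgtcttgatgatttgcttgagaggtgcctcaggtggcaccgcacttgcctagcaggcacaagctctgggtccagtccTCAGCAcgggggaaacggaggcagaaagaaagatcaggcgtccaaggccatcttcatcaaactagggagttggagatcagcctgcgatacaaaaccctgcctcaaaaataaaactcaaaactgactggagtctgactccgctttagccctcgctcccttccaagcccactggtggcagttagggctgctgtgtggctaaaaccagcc
Irf4 promoter (chr13:30748983-30749282, plus strand): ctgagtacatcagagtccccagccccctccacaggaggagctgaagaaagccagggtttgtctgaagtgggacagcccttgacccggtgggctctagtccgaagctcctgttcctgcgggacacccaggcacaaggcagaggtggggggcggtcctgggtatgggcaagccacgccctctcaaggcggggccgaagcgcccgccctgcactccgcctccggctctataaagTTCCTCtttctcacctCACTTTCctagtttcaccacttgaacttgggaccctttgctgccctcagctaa
Prdm1 promoter (chr10:44458699-44458998, minus strand): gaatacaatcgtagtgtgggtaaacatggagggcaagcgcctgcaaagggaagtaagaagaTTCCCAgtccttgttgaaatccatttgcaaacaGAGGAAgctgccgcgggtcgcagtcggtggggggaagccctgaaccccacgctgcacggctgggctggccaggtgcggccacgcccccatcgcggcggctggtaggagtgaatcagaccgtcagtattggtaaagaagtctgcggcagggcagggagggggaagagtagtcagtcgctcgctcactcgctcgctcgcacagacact
Runx3 upstream promoter (chr4:135120395-135120694, plus strand): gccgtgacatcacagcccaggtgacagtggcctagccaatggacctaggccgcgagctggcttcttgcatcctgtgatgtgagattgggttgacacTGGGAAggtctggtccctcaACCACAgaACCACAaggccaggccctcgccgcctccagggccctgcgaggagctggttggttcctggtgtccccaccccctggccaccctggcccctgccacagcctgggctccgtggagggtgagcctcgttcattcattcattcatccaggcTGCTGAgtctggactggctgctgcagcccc

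The upstream Runx3 window held the RUNX core at 2 places, starting at positions -134 and -126 from the start site, so a few bases apart and in the same orientation. The Ikaros core was in 4 of the 9 windows (both of Irf8, that of Prdm1 and the upstream one of Runx3), against 25.6% of all 32851 promoter windows of that length. The ETS core was in 2 of 9 (Irf4 and Prdm1), against 28.3%, and the BLIMP-1 core in that of Irf4, against 4.81%. The RUNX core was found in 16.8% of all windows and the MAF core in 19.5%. No window held the IRF or C/EBP letters, which 3.44% and 10.8% of all windows hold. The Ikzf1 window shown, with a G and C content of 81.3%, had no match to any of the 7. Of the windows not printed, that of Cebpb and the other ones of Ikzf1 and Runx3 also had no match. The other Irf8 window, at the start of the annotated gene, had 1. These matches describe letters in short windows and do not show binding.

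In vehicle plaque the members spanned a wide range of levels. Per kilobase of exon, Spi1 stood highest at 73.5 ± 32.4 CPM per kb (counts scaled to library size, mean ± SD, n = 3), followed by Irf8 at 28.4 ± 13.6 and Cebpb at 18.4 ± 2.72. Ikzf1 followed at 10.3 ± 0.739 CPM per kb, then Runx3 at 4.295 ± 1.495, Maf at 2.47 ± 0.883 and Prdm1 at 1.94 ± 0.326. Ikzf3 (1.12 ± 0.217 CPM per kb) and Irf4 (0.654 ± 0.178) were the least abundant. Neighbours in this order overlapped between libraries for Irf8 and Cebpb, for Runx3 and Maf, and for Maf and Prdm1. The other neighbours did not overlap. Spi1, Irf8 and Cebpb, whose proteins act in the myeloid line, thus stood above the other 6, which include Maf of resident macrophages. Exons of Cebpb share 312 bases with a gene on the opposite strand, so its place in this order is uncertain. The smallest count of any of the 9 factors in a library was 82 reads, for Irf4 in ABT263 replicate 3, where counting error alone is 11% of the value. Some other genes named below, at well under 1 CPM, rest on fewer reads.

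Of the 9 factors, Ikzf1, Ikzf3, Irf8 and Prdm1 were lower in every ABT263 library than in every vehicle library, and none was higher in that way. Across all genes tested, 6.31% were lower and 5.68% were higher without overlap. By edgeR's quasi-likelihood test none of the 9 passed an adjusted p of 0.05, nor did any other gene (0% called), and no adjusted p was below 0.592. The same 4 members, all on the lower side, had an unadjusted p under 0.05 by edgeR, where 3.68% of all genes were listed as lower and 4.70% as higher. DESeq2 called 3 members lower (Ikzf1, Irf8 and Prdm1), against 0.582% of all genes. By limma-voom 0 were called, with 4 at an unadjusted p under 0.05, against 855 of the 15222 genes tested in either direction. The median log2 fold change (ABT263 over vehicle) of the 9 was -0.88, beside 0.00080 over all genes tested. Differences below are therefore given as values and not as calls.

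**Figure D1:**
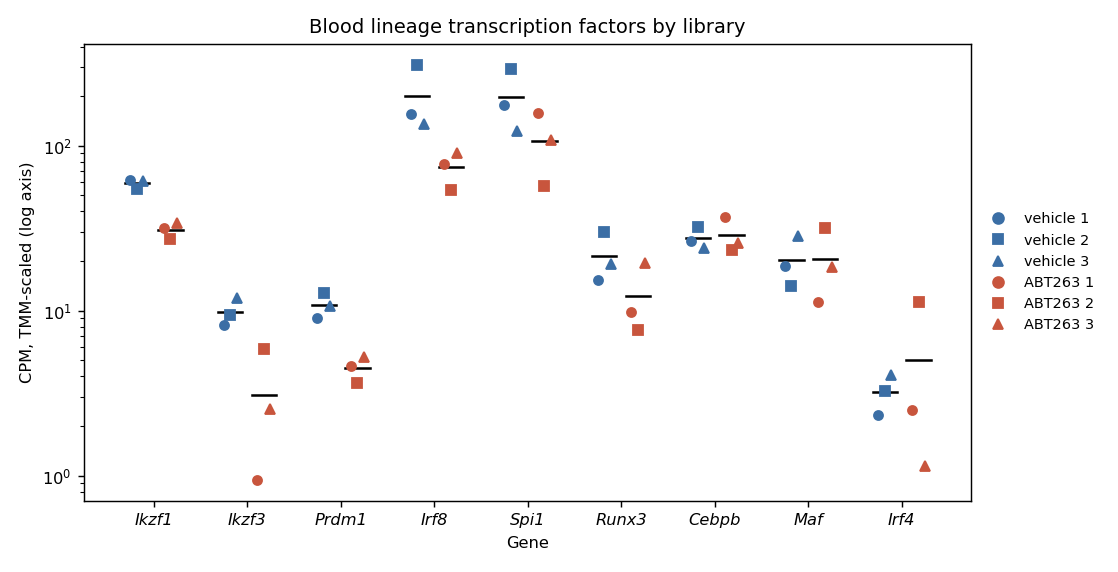
Level of each factor in each library, in CPM after TMM scaling of library sizes, on a log axis. Symbols mark replicates 1 to 3 (blue, vehicle, and red, ABT263) and black bars the mean of 3. The red and blue symbols are apart for Ikzf1, Ikzf3, Prdm1 and Irf8 and mixed for the other 5.

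Ikzf1, which encodes Ikaros (chromosome 11, 11685003 to 11772926, mm10), had the tightest separation. It stood at 62.3, 54.5 and 61.4 CPM in vehicle replicates 1 to 3 and at 31.8, 27.2 and 34.2 CPM in ABT263 replicates 1 to 3. The 3 treated libraries lay close together at 52.2% of the vehicle mean, and the gap between the groups exceeded the range within either. The log2 fold change was -0.94 (SE 0.16, unadjusted p = 0.000855 and adjusted p = 0.592 by edgeR, adjusted p = 0.00117 by DESeq2). It ranged from -1.01 to -0.85 over the fits that each left out 1 library.

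Ikzf3, which encodes Aiolos (chromosome 11, 98464902 to 98546031), stood at 8.19, 9.39 and 11.9 CPM with vehicle and at 0.940, 5.84 and 2.52 CPM with ABT263. The treated libraries were all lower but differed widely among themselves, replicate 1 being the lowest and replicate 2 nearest to vehicle. Its log2 fold change was -1.67 (SE 0.63, unadjusted p = 0.0356 by edgeR). It was -1.24 without ABT263 replicate 1, the lowest library, and -2.50 without ABT263 replicate 2. That library also had the highest sum of 7 thymocyte genes, 171 CPM against 29.6 to 119.9 in the other libraries. Of these genes, Cd1d1 stood at 55.0 CPM there and at 4.17 to 8.59 CPM elsewhere. Rag1 and Dntt stood at 69.6 and 25.6 CPM there, near vehicle replicates 1 (62.4 and 30.0) and 3 (59.6 and 23.3). The sum of 9 T cell genes was 172 CPM in that library, within the vehicle range of 168 to 221. The other ABT263 libraries had 59.7 and 98.6. The part of such cells in the level of Ikzf3 was not tested. The remaining Ikaros family genes did not share this pattern: Ikzf2, Ikzf4 and Ikzf5 overlapped between the groups, with log2 fold changes of -0.028, 0.056 and 0.28. Ikzf5 overlaps exons of other genes on the opposite strand, and the library kit does not mark strand, so its count is uncertain.

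Prdm1, encoding BLIMP-1 (chromosome 10, 44437177 to 44528501), stood at 9.09, 12.7 and 10.7 CPM with vehicle and at 4.65, 3.66 and 5.22 CPM with ABT263. As for Ikzf1, both groups were narrow and well apart. The log2 fold change was -1.27 (SE 0.26, unadjusted p = 0.00226 by edgeR, adjusted p = 0.00285 by DESeq2), with a range of -1.38 to -1.13 when single libraries were left out. The median log2 fold change of 10 genes that belong to the secretory programme which BLIMP-1 and IRF4 run in plasma cells was -0.22. Of these genes, 8 overlapped and 2 were lower without overlap, against 6.31% of all genes tested. The 2 were Mzb1, a chaperone of antibody assembly (1.31, 3.12 and 1.58 CPM with vehicle, 0.155, 0.252 and 0.351 with ABT263), and Igj, the joining chain of polymeric antibody (4.94, 43.4 and 4.84 against 2.88, 2.22 and 0.393 CPM). Derl3, a protein of endoplasmic reticulum quality control, had a log2 fold change of -0.45 and overlapped.

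Irf4, in contrast, was low in 5 libraries and high in 1. On chromosome 13 (30749226 to 30766976), it stood at 2.32, 3.24 and 4.07 CPM with vehicle and at 2.49, 11.3 and 1.15 CPM with ABT263. The value in ABT263 replicate 2 was the highest and that in replicate 3 the lowest of all. The log2 fold change was 0.64 (SE 0.81, unadjusted p = 0.46 by edgeR), and it turned to -0.81 without ABT263 replicate 2. That library stood apart in markers of other tissue: the sum of 8 adipocyte genes was 3278 CPM against 139 to 347 in the other 5 libraries, that of 6 brown adipocyte genes 593 against 5.92 to 10.8, and that of 6 mast cell genes 145 against 0.622 to 0.909. IRF4 is known to act in fat cells and mast cells as well as in lymphocytes. The part of those cells in the level of Irf4 was not tested.

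Among the myeloid factors, Irf8 (chromosome 8, 120736358 to 120756694) stood at 156, 310.3 and 135 CPM with vehicle and at 78.1, 53.8 and 90.7 CPM with ABT263. Every treated library was lower, but vehicle replicate 2 was 2.13 times the mean of the other vehicle libraries. The log2 fold change was -1.43 (SE 0.38, unadjusted p = 0.00779 by edgeR, adjusted p = 0.04999 by DESeq2), or -0.97 without vehicle replicate 2 and -0.79 without that library and ABT263 replicate 2 together. Spi1, encoding PU.1 (chromosome 2, 91082390 to 91115756), stood at 178, 294 and 123 CPM with vehicle and at 158, 56.9 and 108 CPM with ABT263, so that replicate 1 of the treated group lay inside the vehicle range. Its log2 fold change was -0.88 (SE 0.46, unadjusted p = 0.10 by edgeR), -0.48 without vehicle replicate 2 and -0.18 without both replicates 2. The difference in Spi1 thus lay within the spread between libraries.

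Vehicle replicate 2, high for both genes, was also the library with the highest level of Irf1, Irf3, Irf5, Irf7 and Irf9, other interferon regulatory factors. All 7 other members of that family had a negative log2 fold change, with a median of -0.77, and 1 of them did not overlap. Across all genes tested, 49.9% had a negative log2 fold change and 6.31% were lower without overlap. Irf7, which amplifies type I interferon, stood at 10.8, 326 and 37.9 CPM with vehicle and at 12.3, 26.4 and 9.92 CPM with ABT263. Irf5, which acts downstream of Toll-like receptors, stood at 135, 321 and 105 against 119.7, 62.5 and 92.9 CPM, and its exons share 411 bases with Tnpo3 on the opposite strand. Irf2, a repressor of interferon genes, was the family member that did not overlap, at 44.9, 46.6 and 48.8 against 37.5, 33.2 and 32.9 CPM (log2 fold change -0.44, SE 0.15). The median of the family was -0.19 without both replicates 2.

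Cebpb and Maf did not separate the groups. Cebpb (chromosome 2, 167688915 to 167690418) stood at 26.5, 32.1 and 24.2 CPM with vehicle and at 36.8, 23.4 and 25.9 CPM with ABT263, a log2 fold change of 0.056 (SE 0.23). Maf (chromosome 8, 115682942 to 115707794) stood at 18.7, 14.1 and 28.4 against 11.3, 31.9 and 18.5 CPM, a log2 fold change of 0.014 (SE 0.43). For both genes the lowest and the highest of the 6 libraries were ABT263 libraries, and the sign of the change depended on which library was left out. Exons of Cebpb and Maf overlap those of a gene on the opposite strand (Tmem189 over 312 bases and Gm15655 over 440 bases), so both counts are uncertain. Some of their relatives did separate the groups. Maff, a small MAF protein with no activation domain, stood at 24.4, 24.2 and 30.6 against 37.0, 34.8 and 33.8 CPM (log2 fold change 0.42, SE 0.16), higher without overlap. Cebpd, which is induced in acute inflammation, stood at 27.3, 36.4 and 31.0 against 75.2, 39.2 and 39.1 CPM (log2 fold change 0.70, SE 0.30), also higher without overlap, while Cebpa had -0.28 and overlapped.

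Runx3 (chromosome 4, 135120652 to 135177990) stood at 15.4, 29.8 and 19.2 CPM with vehicle and at 9.81, 7.60 and 19.4 CPM with ABT263. The groups overlapped through ABT263 replicate 3, and the vehicle group was spread by replicate 2. The log2 fold change was -0.81 (SE 0.42, unadjusted p = 0.0984 by edgeR), -0.50 without vehicle replicate 2 and -1.30 without ABT263 replicate 3. The related factors Runx1 and Runx2 had log2 fold changes of -0.44 and -0.52, and their partner Cbfb -0.12, and all 3 overlapped.

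**Figure D2:**
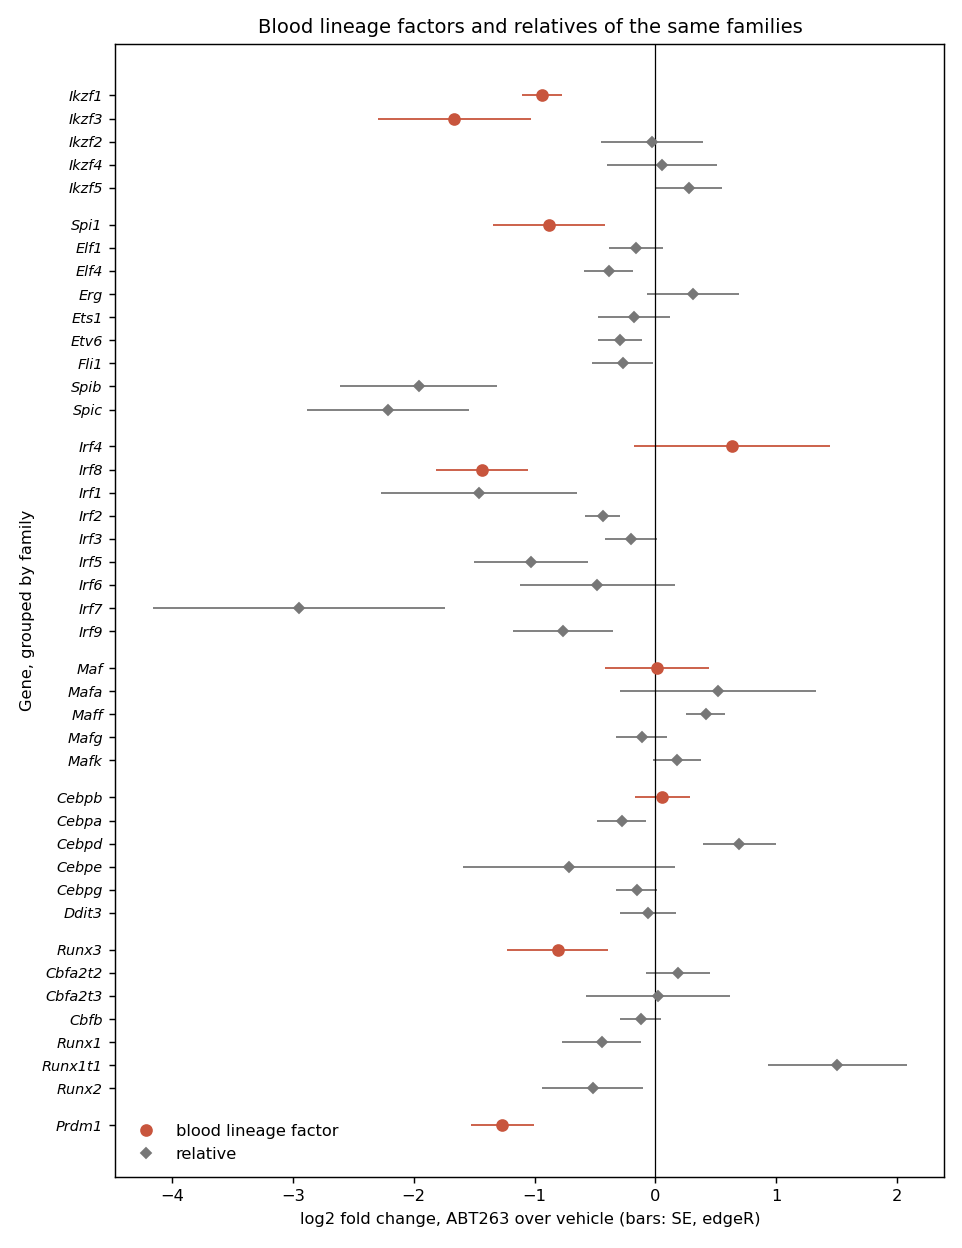
Log2 fold change (ABT263 over vehicle) with its SE from edgeR for the 9 factors (red circles) and for some relatives from the same families (grey diamonds). Ikzf1 and Prdm1 have the shortest bars among the factors lower by 0.5 or more, and Irf4, Maf and Cebpb span 0.

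By summed CPM, white blood cell genes took a smaller share of reads with ABT263. The sum of 10 genes found in all white blood cells was 3129 to 4473 CPM with vehicle and 1353 to 2977 CPM with ABT263, without overlap. The exact two-sided permutation p was 0.1, the smallest that 3 against 3 allows. Of the 9 of these genes that were tested, 5 were each lower without overlap, against 6.31% of all genes tested. On their mean log2 CPM the groups overlapped, with 7.81 in vehicle replicate 3 and 7.85 in ABT263 replicate 1. Macrophage genes summed to 14656 to 22493 against 7267 to 14303 CPM, B cell genes to 112 to 195 against 31.5 to 86.4 CPM, and NK cell genes to 16.2 to 62.0 against 2.69 to 8.49 CPM, each without overlap. Of the 9 macrophage genes, 4 were lower without overlap. The most abundant of them, Lyz2, overlapped (15540, 9907 and 9734 against 10069, 5106 and 10147 CPM). So did Cd22, the most abundant B cell gene (162, 72.9 and 110 against 26.4, 33.6 and 75.8 CPM). T cell, dendritic cell and neutrophil sums overlapped. Even so, 7 of the 9 T cell genes, like 7 of the 8 B cell genes, were each lower without overlap, against 6.31% of all genes tested. Outside the blood lines, fibroblast genes summed to 2396 to 3627 CPM with vehicle and 3826 to 6446 CPM with ABT263, higher without overlap, and cartilage-like genes to 1510 to 2618 against 715 to 1251 CPM, lower without overlap. The part of these cells in the levels of the 9 factors was not tested. Smooth muscle genes summed to 2476 to 3417 CPM with vehicle and to 2242, 15245 and 9291 CPM in ABT263 replicates 1 to 3. In bulk tissue a smaller number of cells of a type and less RNA of a gene per cell cannot be told apart, and this holds for every value above.

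Each factor was therefore also set against the leukocyte genes of its own library, as its log2 CPM minus the mean log2 CPM of the 9 leukocyte genes that were tested. Ikzf1 then stood at -2.16, -2.87 and -1.87 with vehicle and at -2.86, -1.92 and -2.37 with ABT263. The groups were mixed, with a difference of -0.087 on the log2 scale (exact permutation p = 0.8, two-sided, adjusted p = 0.9 over the 9 factors). That difference ran from -0.37 without vehicle replicate 2 to 0.15 without ABT263 replicate 1, and without both replicates 2 it was -0.60, with the remaining libraries of the groups apart. Spi1 (-0.055) and Runx3 (-0.017) had differences near 0, with a sign that depended on which library was left out. Prdm1 had a difference of -0.41 (-0.18 without ABT263 replicate 1, -0.70 without both replicates 2), with overlap. Ikzf3 had one of -1.16, also with overlap, which was -0.23 without ABT263 replicate 1, -2.13 without ABT263 replicate 2 and -2.37 without both replicates 2. Irf8 stood at -0.83, -0.36 and -0.73 with vehicle and at -1.57, -0.94 and -0.96 with ABT263. It was the member that stayed lower without overlap on this scale, by a difference of -0.51 (exact permutation p = 0.1, adjusted p = 0.45), or -0.31 without ABT263 replicate 1. Against the summed CPM of the same genes, which the most abundant of them dominate, Irf8 overlapped and 0 of the 9 were lower without overlap. Cebpb stood at -3.39, -3.63 and -3.22 with vehicle and at -2.65, -2.14 and -2.77 with ABT263, higher without overlap on both scales, by 0.89 on the log2 scale (exact permutation p = 0.1, adjusted p = 0.45), or 0.59 without both replicates 2. The level of Cebpb itself overlapped, and the mean log2 level of the leukocyte genes differed by -0.85 (exact permutation p = 0.2). No member could pass a threshold of 0.05 in this design.

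**Figure D3:**
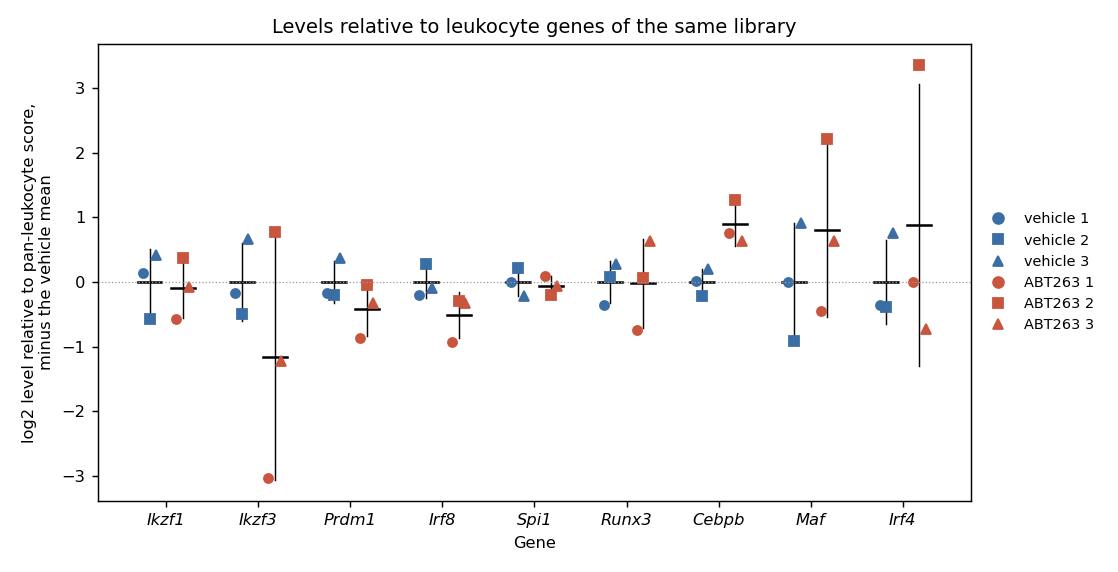
Log2 level of each factor relative to 9 leukocyte genes of the same library, with the vehicle mean of each gene set to 0. Symbols mark replicates, black bars the mean and thin lines the SD of 3 libraries. Ikzf1, Spi1 and Runx3 lie around 0 in both groups, and Irf8 lies lower and Cebpb higher with ABT263. ABT263 replicate 2 is the highest point for Ikzf3, Cebpb, Maf and Irf4.

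Genes that these factors are known to control, or that are tied to them in the literature, were described next. By edgeR no gene of any list passed, and the lists share genes with the marker lists of white blood cells. Across all genes tested, 49.9% had a negative log2 fold change and 6.31% were lower without overlap. All 16 PU.1 target genes had a negative log2 fold change, with a median of -0.74, and 4 were lower without overlap. Among them was Csf3r, the G-CSF receptor of neutrophils and monocytes, at 64.6, 75.2 and 55.2 CPM with vehicle and at 28.0, 24.4 and 33.1 CPM with ABT263. Csf1r, which binds M-CSF and keeps macrophages alive, had 347, 434 and 367 against 242, 209.7 and 250.4 CPM, and Blnk, an adaptor of the B cell receptor also present in macrophages, had a log2 fold change of -0.86. The median of the PU.1 list was -0.20 without both replicates 2.

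All 12 genes tied to IRF8 and IRF4 were negative as well, with a median of -1.66 and 5 lower without overlap. Cd83, a surface protein of activated antigen-presenting cells, stood at 115, 167 and 74.8 CPM with vehicle and at 71.0, 31.3 and 58.8 CPM with ABT263. Ccr7, the homing receptor of migrating dendritic cells, stood at 2.58, 4.31 and 6.06 against 0.579, 0.934 and 2.36 CPM. Clec9a, a receptor of cross-presenting dendritic cells, stood at 6.93, 50 and 10.7 against 5.88, 6.12 and 2.89 CPM, so its highest value was again in vehicle replicate 2. The median of this list was -0.73 without that library.

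Genes tied to RUNX3 in T and NK cells were negative in 14 of 14, with a median of -1.24, and 5 were lower without overlap. Itgal, the integrin chain of LFA-1, stood at 40.0, 61.1 and 66.4 CPM with vehicle and at 20.3, 26.5 and 21.3 CPM with ABT263. The killing genes Prf1 (perforin) and Gzmb (granzyme B) had log2 fold changes of -2.93 and -2.82 at no more than 7.34 CPM. Of 11 tested genes controlled by Ikaros and Aiolos, 9 were negative and 2 positive (median -0.36). Cd79b, a chain of the B cell receptor (5.55, 13.9 and 17.6 against 1.25, 4.70 and 2.92 CPM), was lower without overlap, whereas Cd8a overlapped. The median of this list was -1.68 without both replicates 2.

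The lists for C/EBP-beta and c-MAF also held genes of both signs. Of 14 genes tied to C/EBP-beta, 9 were negative and 5 positive, with a median of -0.36 that turned to 0.76 without vehicle replicate 2. Hp, the acute-phase protein haptoglobin, stood at 29.1, 33.2 and 13.2 CPM with vehicle and at 50.6, 527 and 41.0 CPM with ABT263, the highest value again being in the library with adipocyte genes. Serpina3n, a protease inhibitor, had a log2 fold change of 1.80 and S100a8, a neutrophil alarmin, -1.44, and both overlapped. Of 11 tested genes tied to c-MAF, 8 were negative and 3 positive. The complement genes C1qb and C1qc had log2 fold changes of -1.25 and -1.23, whereas Lyve1, a marker of resident vessel-wall macrophages and of lymphatic endothelium, stood at 1.20, 0.566 and 1.36 CPM with vehicle and at 3.40, 55.2 and 3.09 CPM with ABT263.

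**Figure D4:**
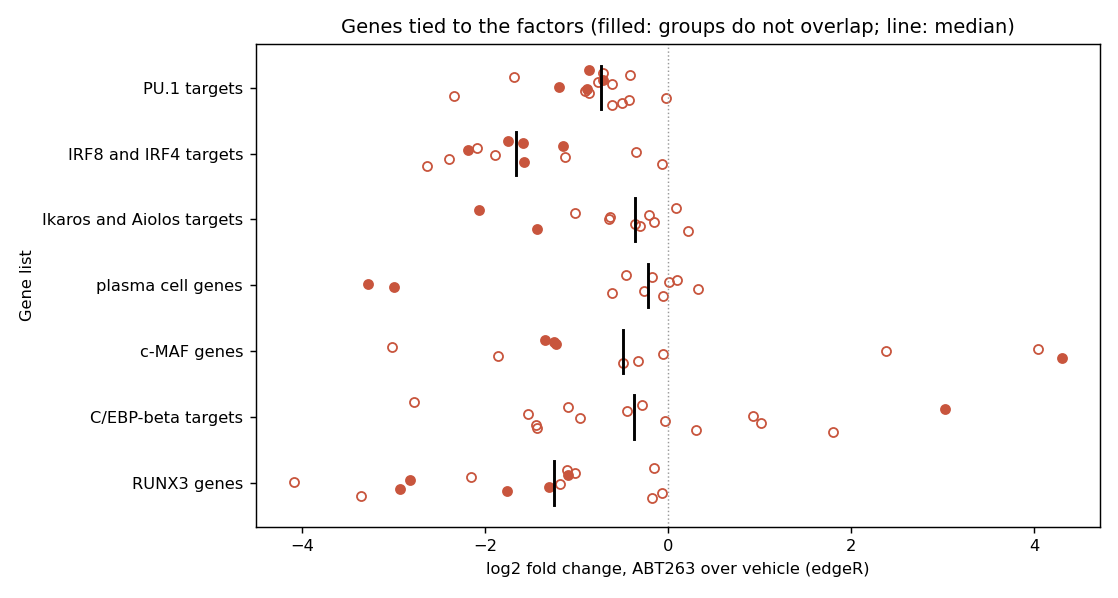
Log2 fold change (ABT263 over vehicle, edgeR) of single genes in 7 lists tied to the factors. Filled points are genes whose groups do not overlap and black lines are list medians. The PU.1, IRF8 and IRF4, and RUNX3 lists lie wholly below 0, while the c-MAF and C/EBP-beta lists spread to both sides.

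Other transcription factors of the blood lines were lower more often than higher, again with none called by edgeR. In the T and NK cell list 12 of 14 were negative (median -0.73), in the myeloid list 15 of 18 (median -0.47), in the B and plasma cell list 8 of 11 (median -0.13) and in the progenitor, erythroid and megakaryocyte list 10 of 11 (median -0.25), where 49.9% of all genes tested were negative. The median of the T and NK cell list was -1.38 without both replicates 2. Tbx21, encoding T-bet of cytotoxic and helper T cells, stood at 1.30, 2.76 and 2.97 CPM with vehicle and at 0.124, 0.786 and 0.337 CPM with ABT263. The B cell coactivator Pou2af1 stood at 2.16, 2.38 and 6.63 against 0.269, 1.26 and 0.898 CPM, and its partner Pou2f2 at 16.9, 21.7 and 20.3 against 6.94, 7.09 and 14.4 CPM. Spic, a PU.1 relative of iron-recycling macrophages, and Spib, one of B cells and plasmacytoid dendritic cells, had log2 fold changes of -2.21 and -1.96, both lower without overlap. In the opposite direction, Nfil3, which is needed for NK cell development and is expressed widely, stood at 23.6, 19.0 and 25.6 against 27.9, 42.0 and 43.4 CPM. Meis1, a factor of stem cells that smooth muscle also expresses, stood at 4.85, 5.96 and 5.65 against 7.58, 22.8 and 12.2 CPM. By contrast, the 16 chromatin and DNA-binding cofactors of the members, most of them present in every cell, had a median of -0.014, with 9 negative and 7 positive. Hdac2, a deacetylase of the Ikaros complex, was higher without overlap (log2 fold change 0.29), and Batf3, a partner of IRF8, overlapped (-1.36).

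The profiles of the 9 factors over the 6 libraries were compared with those of 13347 other genes, as the root mean square difference of log2 CPM after each gene's mean was set to 0. For Ikzf1 the nearest genes were March1 (0.102), a ubiquitin ligase acting on MHC class II, Bcl2l11 (0.110), the pro-death protein BIM, and Tgm1 (0.114), against a spread of Ikzf1 itself of 0.484. Among the genes nearest to Prdm1 were Csf3r (0.147) and Nlrc4 (0.153), a sensor of bacterial proteins in myeloid cells. Spi1 lay nearest to Card9 (0.0733), a signalling adaptor of myeloid cells, and Irf8 to Lacc1 (0.116). Ikzf3 lay nearest to Ly6d (0.253), Blk (0.292), a kinase of B cells, and Gzma (0.326). Maf lay nearest to the Ikaros relative Ikzf2 (0.153), Irf4 to H2-Q10 (0.229), Runx3 to Mfi2 (0.161) and Cebpb to Nob1 (0.0417). Within the 9, Ikzf1 and Prdm1 were closest to each other (0.262), and Prdm1 was also the nearest member for Ikzf3 (0.956), Irf8 (0.289) and Runx3 (0.370). Spi1 was nearest to Irf8 (0.381). Cebpb, Maf and Irf4 had no member closer than 0.552, 0.716 and 0.797. With 6 libraries these distances are a description, and many genes lie as close.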

How the data were processed

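Per the labels' protocols, RNA was column-extracted with the RNeasy Micro kit and made into libraries with a TruSeq RNA kit (version 2), which enriches polyadenylated RNA and does not mark strand. The authors deposited 1 table of raw counts per gene symbol, with 1 column per sample. The submitters' processing notes name mm10, Subread, featureCounts 1.4.6, Bowtie2 2.2.6 and TopHat2 2.0.14, with no role or order. Not given in the sources used here are the annotation and the rule for shared reads. Totals ran from 62930547 to 110452098 counts, so 3 counts, the limit a count of 0 allows, equal 0.0272 to 0.0477 CPM (counting error only).

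Replicate numbers follow accession order and pair nothing. Counts were analysed in R 4.3.3 with edgeR 4.0.16: filterByExpr (minimum count 10, minimum total 15), TMM scaling and the quasi-likelihood F-test on group alone (4 residual degrees of freedom), with Benjamini-Hochberg adjustment over 15222 genes. The SE of a log2 fold change is its size over the root of its F value. The fit was tested on simulated data, with planted changes larger than those of the 9 factors. DESeq2 1.42.0, limma-voom (limma 3.58.1), other scalings, no filter and leaving out libraries were the alternatives. List medians without vehicle replicate 2, ABT263 replicate 2 or both, and levels relative to leukocyte genes without single libraries or both, were added after seeing the data. Exon lengths, positions and overlaps came from GENCODE M21 (GRCm38). The 18 gene lists and 21 marker lists come from textbook knowledge. The members and the lists were chosen with earlier results of these data known. Named genes are the 9 factors, up to 3 genes of smallest unadjusted p in each list and the 3 nearest profiles of each factor (mean CPM at least 1 and no library at 0). A few further members of these lists are named to show where relatives stand, chosen after their values were seen. Not all are printed, and some results are not reported here. Protein sequences were not used here.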

Additional observations from a re-analysis of the deposited data

How the results depend on the processing

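Ikzf1, Ikzf3, Spi1, Irf8, Prdm1 and Runx3 kept a negative fold change in all 12 alternative fits (other scalings, no filter, DESeq2, limma-voom and libraries left out). The count lower without overlap was 4 with RLE size factors and with total counts alone. It was 4 to 5 without single libraries, but leaving out a library cannot make separated groups overlap, so the count could not fall. DESeq2 called 153 genes where edgeR called 0, with 1276 genes at an unadjusted p under 0.05 by edgeR and 855 by limma-voom, which called 0. DESeq2 called 3 of the 9 factors: Ikzf1 (log2 fold change -0.95), Irf8 (-1.45) and Prdm1 (-1.28). The cause was not tested. Maf turned to -0.0071 with RLE size factors, -0.0071 with DESeq2, -0.064 with limma-voom and -0.66 without both replicates 2, and ranged from -0.45 to 0.32 when single libraries were left out. Irf4 turned to -0.023 with limma-voom and -0.81 without both replicates 2, with a range of -0.81 to 1.10. Cebpb ranged from -0.17 to 0.19. Relative to the summed leukocyte genes, 0 factors were lower without overlap. Depth limits Irf4 and Ikzf3 most, with 82 and 91 reads in their lowest libraries.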

Other observations

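Within a library, the ratio of Irf8 to its partner Spi1 was 0.878, 1.06 and 1.10 with vehicle and 0.494, 0.945 and 0.840 with ABT263, with overlap (exact permutation p = 0.2 on the log2 scale, two-sided). This pair was chosen after its values were seen. Rn45s, the ribosomal RNA precursor, took 0.542% to 1.74% of counts with vehicle and 0.304% to 0.334% with ABT263, so the same libraries that had low Ikzf1, Ikzf3, Irf8 and Prdm1 had less of it. Its part in those values was not tested.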
